A study of Mus musculus with 4 samples.

Results

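Transcripts of 9 genes that brake the cell cycle or are used as signs of senescence (Cdkn1a, Cdkn1b, Cdkn1c, Cdkn2a, Cdkn2b, Trp53, Gdf15, Glb1 and Lmnb1) were followed in spatial transcriptomes of aged and young mouse ovary. The genes were chosen by symbol, all 9 were found in the count tables, and the tables held 32285 genes. Visium records RNA that leaves a frozen tissue section and binds to barcoded spots on a slide, so that each spot sums several neighbouring cells. The animals were outbred CD-1 females with no transgene or treatment named in the labels, aged for 15 to 16 months (4 aged sections) or 3 to 4 months (4 young sections). One aged and one young section lay together in each of the 4 capture areas. The study asked how gene expression in the ovary differs between these ages.

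Progression through the cell cycle needs cyclin-dependent kinases (CDKs). They are restrained by the Cip/Kip proteins p21 (Cdkn1a), p27 (Cdkn1b) and p57 (Cdkn1c), which bind cyclin and CDK complexes, and by the INK4 proteins p16 (Cdkn2a) and p15 (Cdkn2b), which bind CDK4 and CDK6. The transcription factor p53 (Trp53) induces Cdkn1a after DNA damage. Gdf15, a secreted stress cytokine, also responds to p53. Glb1 encodes the lysosomal enzyme behind senescence-associated β-galactosidase staining, and Lmnb1 encodes lamin B1, a nuclear lamina protein that is often lost from senescent cells. In the ovary, granulosa cells divide in growing follicles and leave the cell cycle when the follicle becomes a corpus luteum, and p27 takes part in that exit in mice.

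The promoter windows of the neighbouring INK4 genes and of Cdkn1a are shown because they bear 2 regulatory motifs tied to these pathways, the GC box bound by Sp1-type factors and the p53 response element. Windows run from 250 bases before to 50 after the transcription start, 5′ to 3′ on the gene's strand, from RefSeq on GRCm38.p6. Capitals mark the GC box (GGGCGG or its complement CCGCCC) in the INK4 windows and the p53 response element in the Cdkn1a window.
Cdkn2b, chr4:89310983-89311282, minus strand: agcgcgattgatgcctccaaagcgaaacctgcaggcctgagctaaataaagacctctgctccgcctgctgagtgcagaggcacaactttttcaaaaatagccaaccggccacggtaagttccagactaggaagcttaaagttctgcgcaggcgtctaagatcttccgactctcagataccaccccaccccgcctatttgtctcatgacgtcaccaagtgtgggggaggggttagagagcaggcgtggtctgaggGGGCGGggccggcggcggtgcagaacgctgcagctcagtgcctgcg
Cdkn2a, start 1, chr4:89294570-89294869, minus strand: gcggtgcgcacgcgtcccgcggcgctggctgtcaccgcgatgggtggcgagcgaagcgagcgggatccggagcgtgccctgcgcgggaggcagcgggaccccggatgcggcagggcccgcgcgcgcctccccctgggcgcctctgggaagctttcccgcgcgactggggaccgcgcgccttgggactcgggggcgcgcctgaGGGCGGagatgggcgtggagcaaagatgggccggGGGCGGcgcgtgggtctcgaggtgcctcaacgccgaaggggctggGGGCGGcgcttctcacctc
Cdkn2a, start 2, chr4:89282143-89282442, minus strand: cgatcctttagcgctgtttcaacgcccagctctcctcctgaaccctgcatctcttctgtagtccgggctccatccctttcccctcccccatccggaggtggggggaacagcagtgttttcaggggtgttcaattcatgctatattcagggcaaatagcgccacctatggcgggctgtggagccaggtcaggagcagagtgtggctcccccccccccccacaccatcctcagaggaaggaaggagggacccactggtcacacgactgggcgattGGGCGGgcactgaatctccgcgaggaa
Cdkn1a, chr17:29090729-29091028, plus strand: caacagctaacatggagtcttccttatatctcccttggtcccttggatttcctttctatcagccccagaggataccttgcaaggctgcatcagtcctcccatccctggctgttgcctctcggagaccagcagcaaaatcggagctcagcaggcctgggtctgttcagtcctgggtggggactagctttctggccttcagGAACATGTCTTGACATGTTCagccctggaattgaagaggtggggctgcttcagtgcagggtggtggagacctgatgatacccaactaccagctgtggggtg
The Cdkn2b window held 1 GC box, the Cdkn2a windows held 3 at start 1 and 1 at start 2, and the window of the first Cdkn1a start held 0. Cdkn1a has 5 annotated transcripts, and any later start is not shown, so this window need not stand for the gene's other starts. A GC box on either strand was present in 35.7% of the 32851 windows in the table, so its presence is common. The p53 response element, allowing 1 mismatch, was present in 22 of those windows, or 0.067%. Among the 10 windows of 7 matched genes it was found in 1, that of the first Cdkn1a start. These matches describe letters in a window and no binding was measured.

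In the gene annotation (GENCODE M21, mm10), Cdkn2b lies on chromosome 4 from 89306299 to 89311039 and Cdkn2a from 89274471 to 89294653, both on the minus strand. The counts are per gene, so the p16 and p19Arf transcripts of Cdkn2a cannot be told apart. Cdkn1a lies on chromosome 17 from 29090976 to 29100727, Cdkn1b on chromosome 6 from 134920401 to 134925513, and Cdkn1c on chromosome 7 from 143458339 to 143461050. Trp53 lies on chromosome 11 from 69580359 to 69591873, Gdf15 on chromosome 8 from 70629393 to 70632456, Glb1 on chromosome 9 from 114401076 to 114474898, and Lmnb1 on chromosome 18 from 56707813 to 56753424. Cdkn1c overlaps the antisense gene Gm44732, and Glb1 overlaps Tmppe on the same strand. The counting's use of strand is not given in the sources used here, so the values of Cdkn1c and Glb1 may hold reads of those genes.

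Aged sections held 257 to 653 spots and 2777948 to 9506517 UMIs (unique molecules counted), against 532 to 762 spots and 9702600 to 21619232 UMIs in young sections, 4191 spots in all. Of the spot barcodes, 1358 occurred in 2 or more areas, since a barcode marks a position on the array. Ages rest on the side of the capture area that the labels name. Oocyte transcripts set area 3 apart: the 12 oocyte markers summed to 481 CPM (counts scaled to a section total of 1000000) in the aged section and 36.7 CPM in the young section of area 3. In the other areas they summed to 33.2 to 41.7 CPM in aged sections and 185 to 566 CPM in young sections. An exchange of the ages in area 3 was not tested, and results that change without that area are given both ways. Granulosa markers were present in every section, their sum spanning 949 to 4627 CPM in aged and 1720 to 2579 CPM in young sections, as were luteal markers (7436 to 23126 CPM in aged and 7860 to 16408 CPM in young sections).

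Between whole sections, none of the 9 genes passed the age test. Cdkn1b and Cdkn1c were the 2 members higher in the aged section of all 4 areas. Their log2 differences were 0.90 ± 0.40 and 0.49 ± 0.21 (aged over young, SE of the fit, n = 4 per age). Neither passed adjustment over all genes. The share of all genes higher in all 4 areas is not given here, so this count does not set the 2 members apart. The count also rests on the labelled ages of the area that oocyte markers set apart. The test was edgeR's quasi-likelihood test on counts summed per section with Benjamini-Hochberg adjustment. It called 0 of 14044 genes, or 0%, at an adjusted p under 0.05, while 392 had an unadjusted p under 0.05 and the lowest adjusted p was 0.823. DESeq2 called 6 genes, none of them a member. All 9 members passed the filter on low counts, and each had an adjusted p of 1.00. In tissue sections, fewer cells of a type and less RNA per cell cannot be told apart.

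Among the Cip/Kip inhibitors, Cdkn1a had 28.8, 12.1, 43.9 and 80.7 CPM in the aged sections of areas 1 to 4, against 19.8, 16.5, 12.99 and 52.9 CPM in the young sections. Area 4 was the highest at both ages, and the ages overlapped. The fitted difference was 0.68 ± 0.58 on the log2 scale. It was 0.06 without the aged section of area 4 and 1.30 without the young section of area 4, so that single sections of that area set its size.

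Cdkn1b had 48.4, 17.9, 77.8 and 38.7 CPM in the aged sections, against 14.0, 14.6, 44.9 and 24.0 CPM in the young sections. Area 3 was the highest at both ages, and within each area the section labelled aged was the higher. The unadjusted p was 0.052, and 0.012 with the capture area as a block, with adjusted p of 1.00 in both fits. The 95% interval of the log2 difference ran between −0.01 and 1.81. Cdkn1c had 16.6, 9.2, 15.8 and 12.1 CPM in the aged sections, against 7.3, 9.0, 11.1 and 10.7 CPM in the young sections. The aged section of area 2 lay within the young range, and the unadjusted p of Cdkn1c was 0.042.

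Of the INK4 inhibitors, Cdkn2b averaged 110 ± 37.0 CPM in aged and 145 ± 49.3 CPM in young sections (SD, n = 4 each). It had 100.5, 164, 85.7 and 88.7 CPM in the aged sections, against 124, 86.8, 171 and 198 CPM in the young sections. Area 2 was the area in which the aged section was the higher, and the difference of −0.32 ± 0.32 on the log2 scale was within the spread of sections. Cdkn2a, the transcript most often read as a mark of senescence, was close to the limit of detection. Its counts were 8, 23, 1 and 8 in the aged sections and 5, 19, 16 and 18 in the young sections, 98 in all, and no spot held more than 2. As levels these were 1.58, 2.42, 0.36 and 1.01 CPM in aged sections, against 0.44, 0.88, 1.65 and 1.04 CPM in young sections. The highest aged value carried a counting interval (exact Poisson, 95%) of 1.53 to 3.63 CPM, and such intervals cover counting error only. The ages overlapped, and the difference of 0.62 ± 0.57 on the log2 scale did not pass the test.

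Trp53 had 61.2, 41.7, 86.0 and 44.0 CPM in the aged sections, against 67.2, 38.7, 50.8 and 58.6 CPM in the young sections. The groups overlapped and differed by 0.09 ± 0.21 on the log2 scale, and by −0.12 without area 3. Lmnb1 had 13.2, 6.5, 47.2 and 10.2 CPM in the aged sections, against 20.9, 9.1, 11.3 and 15.1 CPM in the young sections. In areas 1, 2 and 4 the aged section was the lower, and in area 3 the aged section was the highest of all 8. The sign of the Lmnb1 difference followed area 3: it was 0.33 ± 0.51 on the log2 scale over all sections and −0.56 ± 0.33 without that area, with neither passing the test. The aged section of area 3 was also the highest in the summed cycling markers, at 613 CPM against 113 to 143 CPM in the other aged sections and 93.3 to 449 CPM in young sections. The part of these markers in the Lmnb1 value was not tested.

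Gdf15 and Glb1 averaged nearly the same level at both ages. Gdf15 had 3.35 ± 0.99 CPM in aged and 3.33 ± 1.09 CPM in young sections (SD, n = 4 each), from 6 to 36 and 33 to 103 counts per section. Glb1 had 55.5 ± 12.5 CPM in aged and 52.2 ± 13.9 CPM in young sections. The 95% interval of the Glb1 difference was −0.36 to 0.64 on the log2 scale and that of Gdf15 −0.80 to 0.91, which is the precision that 4 sections per age gave.

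**Figure D1:**
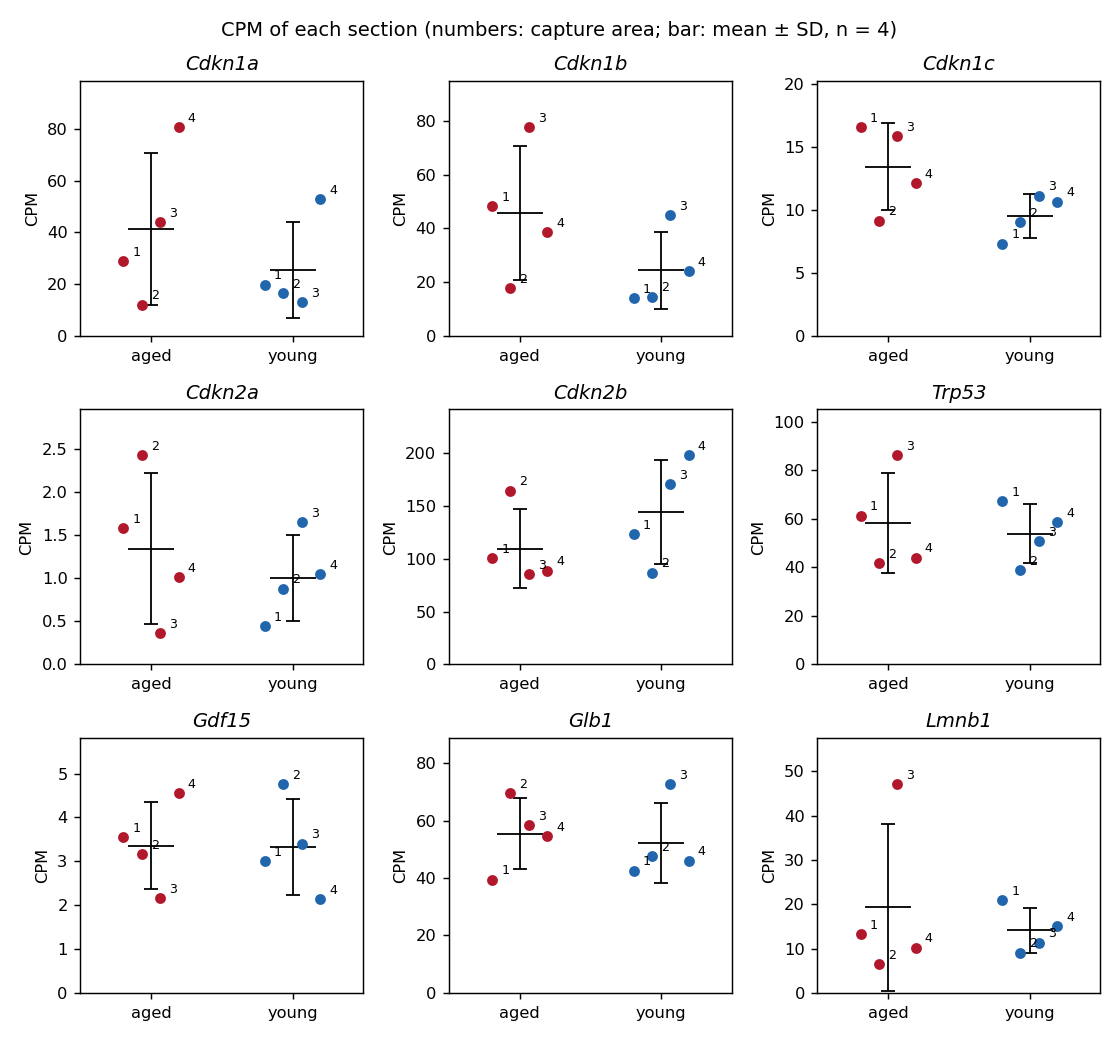
Level of each gene in CPM (vertical axes, each from 0) in the 4 aged and 4 young sections, with the capture area beside each point and bars for mean ± SD. The ages overlap in every panel, as they do for all but 194 of the 14044 genes tested (1.38%). Lmnb1 stands at 47.2 CPM in the aged section of area 3 with the other aged sections at 6.5 to 13.2 CPM.

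**Figure D2:**
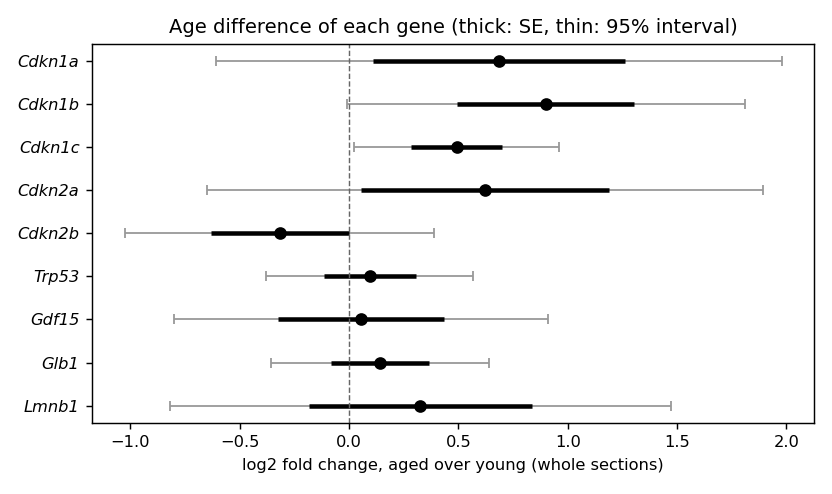
Log2 fold change of each gene, aged over young, between whole sections (horizontal axis), with the SE as thick and the 95% interval as thin bars. Cdkn1c is the member whose unadjusted interval, 0.02 to 0.96, lies above 0.

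The share of spots with at least 1 molecule of a gene was compared after every spot had been thinned to 5000 UMIs, since spots of aged sections were shallower. This left out 280 aged and 110 young spots. At that depth Cdkn2b was found in 33.9 ± 8.3% of spots in aged and 34.9 ± 10.3% in young sections, Cdkn1a in 14.7 ± 8.8% and 9.5 ± 6.4%, and Cdkn2a in 0.77 ± 0.52% and 0.41 ± 0.12%. Cdkn1b was found in 16.1 ± 7.9% of spots in aged and 12.4 ± 6.0% in young sections, Cdkn1c in 6.7 ± 1.6% and 5.4 ± 2.3%, and Trp53 in 25.8 ± 7.8% and 25.6 ± 5.6%. Gdf15 was found in 2.0 ± 0.8% of spots in aged and 1.5 ± 0.9% in young sections, Glb1 in 23.8 ± 5.0% and 24.3 ± 6.4%, and Lmnb1 in 7.0 ± 5.7% and 6.3 ± 2.2%. No member passed the test between ages (two-sided exact permutation test, adjusted p over the 9 genes 0.874 to 1.00). The smallest p that 4 against 4 sections can give is 0.0286. A single member could therefore not have passed adjustment over the 9 genes. Most of the 9 would have had to reach that smallest p together for any to pass. The test thus cannot decide whether 1 gene or a few genes differ. Without thinning, 7 of the 9 differences turned round. Cdkn1a was then found in 29.3 ± 11.95% of spots in aged and 31.1 ± 13.03% in young sections.

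Genes of the pathways around the members did not pass the age test in whole sections either. Of 22 p53 targets tested, 12 were higher in aged sections, with a median log2 difference of 0.04, against 52.5% of all genes higher and a median of 0.01. Perp, a p53-induced membrane protein of epithelia, and Rrm2b, a ribonucleotide reductase subunit, had the smallest p of that list, with log2 differences of −0.61 ± 0.40 and 0.34 ± 0.23. Of 9 regulators of p53 and DNA damage kinases, 6 were higher (median 0.08), and the smallest p were those of Hipk2 (0.69 ± 0.46) and Chek2 (−0.29 ± 0.37), both kinases that act on p53.

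Among genes that set the pace of the G1 phase, 8 of 14 were higher in aged sections (median 0.14), and the 2 with the smallest p were the pocket protein Rb1 (0.23 ± 0.19) and the cyclin Ccne1 (−0.48 ± 0.40). Of the other 3 CDK inhibitors 1 was higher (median −0.02), with Cdkn2c, the p18 inhibitor of CDK4 and CDK6, at −0.37 ± 0.29 and Cdkn3, a CDK phosphatase, at 0.07 ± 0.62. Of 8 genes of p27 turnover and transcription 4 were higher (median −0.003), with the granulosa transcription factor Foxl2 at 0.50 ± 0.34 and the ubiquitin ligase subunit Skp1a at −0.19 ± 0.28. Imprinted genes around Cdkn1c were too sparse for 3 of 8. Of the 5 tested 3 were higher (median 0.00), with Kcnq1ot1, the antisense RNA that silences this domain, at 0.92 ± 0.50 and H19 at −1.33 ± 0.77.

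Of 11 lamina and chromatin genes 5 were higher (median −0.02), the smallest p being those of Lbr, the lamin B receptor, at 0.21 ± 0.15 and Lmnb2 at 0.28 ± 0.23. Of 12 lysosomal genes 6 were higher (median 0.00), with the sulfatase Galns at 0.56 ± 0.23. In the Gdf15 receptor and stress response list, 2 of 9 tested genes were higher (median −0.23). Ddit3, the stress transcription factor CHOP, averaged 80.4 ± 17.4 CPM in aged and 126 ± 52.1 CPM in young sections, a log2 difference of −0.62 ± 0.34, and Ret, the co-receptor for Gdf15, stood at 0.93 ± 0.57. Of 18 secreted factors tested from a list of 28, 13 were higher in aged sections (median 0.14). Cxcl1, a neutrophil chemokine, had −1.19 ± 0.61 and Igfbp3, a carrier of insulin-like growth factors, 1.25 ± 0.72. None of these named genes passed the edgeR test, with adjusted p of 1.00 for each.

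Where on the sections the 9 genes were found was then asked with 12 lists of cell type markers that contain none of them. For each list, the 10% of spots with the highest marker score in a section (26 to 77 spots) were summed and compared with the other spots of the same section, with the section as a block (edgeR's quasi-likelihood test, 8 sections, adjusted over all genes of that fit). These classes are ranges of a score and not cell types. In the granulosa ranking, 3 to 37 spots per section lay near the threshold, and in the luteal ranking 26 to 82. Of 95 tests of a member in a class, 8 were called higher and 18 lower, and 15 of these 26 calls were kept in all 13 alternatives.

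The members' calls were read against the share of all genes called. Oocyte-marker spots had 1 member higher and 2 lower of 8 tested, with 19.7% of all genes called (9.34% higher, 10.4% lower). Granulosa-marker spots had 1 higher and 3 lower (all genes 38.2%, with 17.8% higher and 20.4% lower), and cycling-marker spots 2 higher and 3 lower (39.8%, with 18.2% and 21.6%). With 8 members tested, such counts do not set the members apart from other genes. Luteal-marker spots had 0 higher and 2 lower (26.6%, with 12.5% and 14.1%), smooth muscle-marker spots 0 and 2 (22.3%, with 10.8% and 11.6%), and stroma-marker spots 2 and 2 (21%, with 9.3% and 11.7%). Theca-marker spots had 0 higher and 2 lower of 7 tested, where all genes were seldom called (3.46%, with 1.67% and 1.79%). Surface epithelium-marker spots had 1 and 1 (17.3%, with 8.61% and 8.68%) and macrophage-marker spots 1 and 1 (8.56%, with 4.47% and 4.09%). In endothelium-, oviduct epithelium- and lipid-laden macrophage-marker spots edgeR called 0 members, with 11.4% (6.43% higher, 5.01% lower), 0.856% (0.797% and 0.0591%) and 5.59% (2.95% and 2.64%) of all genes called.

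Lmnb1 rose in cycling-marker spots. There it had 35.5, 14.6, 91.0 and 42.5 CPM in the aged sections, against 10.0, 5.2, 38.2 and 6.6 CPM in the rest of those sections. Young sections had 54.3, 24.3, 39.2 and 30.6 CPM in cycling-marker spots, against 17.0, 7.2, 8.2 and 13.2 CPM in the rest. It was higher in 8 of 8 sections, by 1.69 ± 0.15 on the log2 scale (adjusted p = 1.1e-06).

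In granulosa-marker spots Lmnb1 averaged 34.7 ± 10.98 CPM, against 14.4 ± 13.7 CPM in the rest (SD, n = 8), and was higher in 8 of 8 sections by 1.49 ± 0.19 (adjusted p = 3.6e-05). Of the 420 granulosa-marker spots, 212 were also cycling-marker spots, so both results rest partly on the same spots. Oocyte-marker spots showed a rise of 0.80 ± 0.20 (adjusted p = 0.0066) in 7 of 8 sections, and luteal-marker spots a fall of 0.74 (SE 0.18, adjusted p = 0.0096) in 8 of 8. Of the 420 oocyte-marker spots, 101 were also cycling-marker spots and 79 also granulosa-marker spots. Their summed oocyte markers were 223 to 429 CPM in aged sections 1, 2 and 4 and young section 3, against 1394 to 3487 CPM in the others. In macrophage-marker spots Lmnb1 was lower by 0.88 (SE 0.25, adjusted p = 0.029), a call lost without area 3 (adjusted p = 0.109) and without any single young section (adjusted p 0.057 to 0.089).

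Cdkn2b ran the other way. In cycling-marker spots it had 32.4, 75.4, 25.4 and 6.2 CPM in the aged sections, against 110, 179, 97.7 and 98.0 CPM in the rest. Young sections had 5.1, 16.2, 80.5 and 47.3 CPM in cycling-marker spots, against 137, 95.4, 181 and 217 CPM in the rest. It was lower in cycling-marker spots of all 8 sections, with a log2 difference of −2.21 ± 0.26 (adjusted p = 1.3e-05).

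Cdkn2b also fell in smooth muscle-marker spots (−1.87 ± 0.17), stroma-marker spots (−1.79 ± 0.22), granulosa-marker spots (−1.79 ± 0.19), oocyte-marker spots (−1.30 ± 0.22), surface epithelium-marker spots (−0.998 ± 0.251) and theca-marker spots (−0.94 ± 0.23), with adjusted p of 1.4e-08 to 0.029. Of the 420 smooth muscle-marker spots, 143 were also stroma-marker spots, as were 91 of the theca-marker spots. These falls therefore rest partly on the same spots. The theca call was lost in 7 of the 13 alternatives, 6 of which leave out a single section, at adjusted p up to 0.096. The summed theca markers were moreover no higher in the theca-marker spots than in the rest of aged section 4 and of young sections 1 and 2. The surface epithelium call was lost with the highest 20% of spots (adjusted p = 0.079). In macrophage-marker spots Cdkn2b averaged 170 ± 62.7 CPM, against 123 ± 46.1 CPM in the rest, a log2 difference of 0.44 ± 0.15 that did not pass (adjusted p = 0.068) but did with the highest 20% of spots (0.62, adjusted p = 0.0052).

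In luteal-marker spots Cdkn2b was uneven. It had 160, 299, 147 and 21.7 CPM in the aged sections, against 87.7, 144, 75.8 and 106 CPM in the rest. In the young sections it had 271, 101, 53.4 and 521 CPM in luteal-marker spots, against 99.1, 84.4, 197 and 156 CPM in the rest. It was the higher in 6 of 8 sections, the exceptions being aged section 4 and young section 3, and the difference of 0.52 ± 0.40 did not pass. In those 2 sections the luteal-marker spots hardly differed from the rest in the summed luteal markers: 23573 against 23016 CPM in aged section 4 and 15370 against 16642 CPM in young section 3. That sum is weighted to abundant markers, while the spots were chosen on a mean of z-scores. In the whole of aged section 4, Akr1c18 had 10137 CPM and Sfrp4 7205 CPM of a sum of 23126 CPM.

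Over the sums of the 12 classes in 8 sections (96 points that share spots, sections and depth), the 3 genes whose pattern was most like that of Cdkn2b were Akr1c18 (r = 0.945), S100a6 (r = 0.943) and Lgmn (r = 0.935), among 7502 genes of at least 20 CPM. Akr1c18 encodes the enzyme that inactivates progesterone in the regressing corpus luteum of rodents, S100a6 a calcium-binding protein and Lgmn a lysosomal protease. Akr1c18 and Hsd17b7 are both members of the luteal list, so the correlation is a description. Both were therefore also used alone to rank spots, chosen once the likeness had been seen, and these values carry no test.

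In the 10% of spots with the highest Akr1c18, Cdkn2b had 294, 272, 354 and 151 CPM in the aged sections, against 77.5, 145, 60.2 and 73.8 CPM in the rest. Young sections had 455, 227, 327 and 544 CPM in those spots, against 65.1, 67.3, 146 and 145 CPM in the rest. Cdkn2b was higher in the Akr1c18-high spots of 8 of 8 sections. These spots held 24.95 to 55.2% of a section's Cdkn2b counts and 8.54 to 19.3% of its UMIs. Over the ranks of Akr1c18, the median of Cdkn2b over sections rose from 12.1 CPM in the lowest 10% of spots to 311 CPM in the highest. Across the spots of a section Spearman's rho was 0.33 to 0.80, with a median of 0.64, and depth per spot and the shared tissue enter it.

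Cdkn1b differed from Cdkn2b within the luteal markers. In Akr1c18-high spots Cdkn1b averaged 21.1 ± 14.7 CPM, against 37.2 ± 22.7 CPM in the rest, and was the higher in 0 of 8 sections. In spots with the highest Hsd17b7, a steroid enzyme of the functional corpus luteum, Cdkn1b was higher than in the rest in 7 of 8 sections. There it had 82.2, 9.2, 206 and 75.4 CPM in the aged sections, against 41.3, 18.6, 59.3 and 28.0 CPM in the rest. In the young sections it had 21.8, 17.2, 59.96 and 24.8 CPM in those spots, against 13.2, 14.2, 41.6 and 24.0 CPM in the rest. Aged section 2 was the exception, and the young differences were small. The level of Hsd17b7 itself in these spots was uneven. It was 188 CPM in aged section 2 and 338 CPM in young section 4, against 1139 to 5426 CPM in the other sections. The rest of aged section 4 held 1269 CPM of Hsd17b7. The chosen spots are therefore not equally rich in this gene, and counts over sections treat them alike. Cdkn2b was higher in Hsd17b7-high spots than in the rest in 3 of 8 sections. In aged section 4 it had 16.9 CPM in Hsd17b7-high spots, against 110 CPM in the rest. In young section 3 it had 17.1 CPM, against 204 CPM in the rest. These are also the sections whose luteal-marker spots were lower in Cdkn2b than the rest.

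The other 7 members were ranked the same way. Cdkn1a averaged 58.9 ± 59.2 CPM in Akr1c18-high spots, against 28.5 ± 17.6 CPM in the rest, and was the higher in 6 of 8 sections (SD, n = 8). Lmnb1 averaged 7.6 ± 7.4 CPM, against 18.0 ± 13.5 CPM in the rest, and was the higher in 0 of 8. Trp53 was higher in Akr1c18-high spots than in the rest in 1 of 8 sections, Cdkn2a in 4, and Cdkn1c, Gdf15 and Glb1 in 3 each. In Hsd17b7-high spots Trp53 was higher than in the rest in 0 of 8 sections, Gdf15 and Lmnb1 in 2 each, Cdkn1c and Cdkn2a in 3 each, Glb1 in 5 and Cdkn1a in 6.

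**Figure D3:**
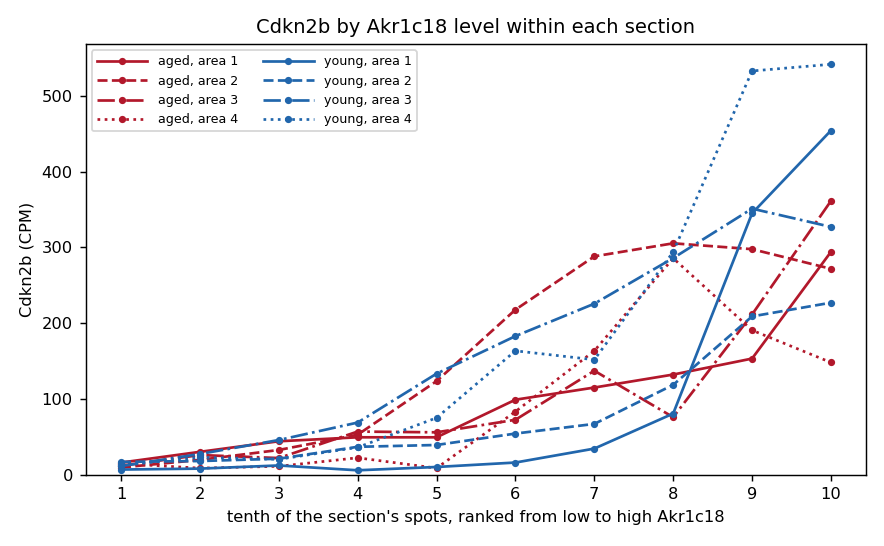
Cdkn2b in CPM (vertical axis) in each 10% of a section's spots ranked by Akr1c18 (horizontal axis, low to high), 1 line per section. The lowest ranks lie at 6.9 to 17.03 CPM and the highest at 148 to 542 CPM, and aged sections 2 and 4 and young section 3 peak before their highest rank.

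**Figure D4:**
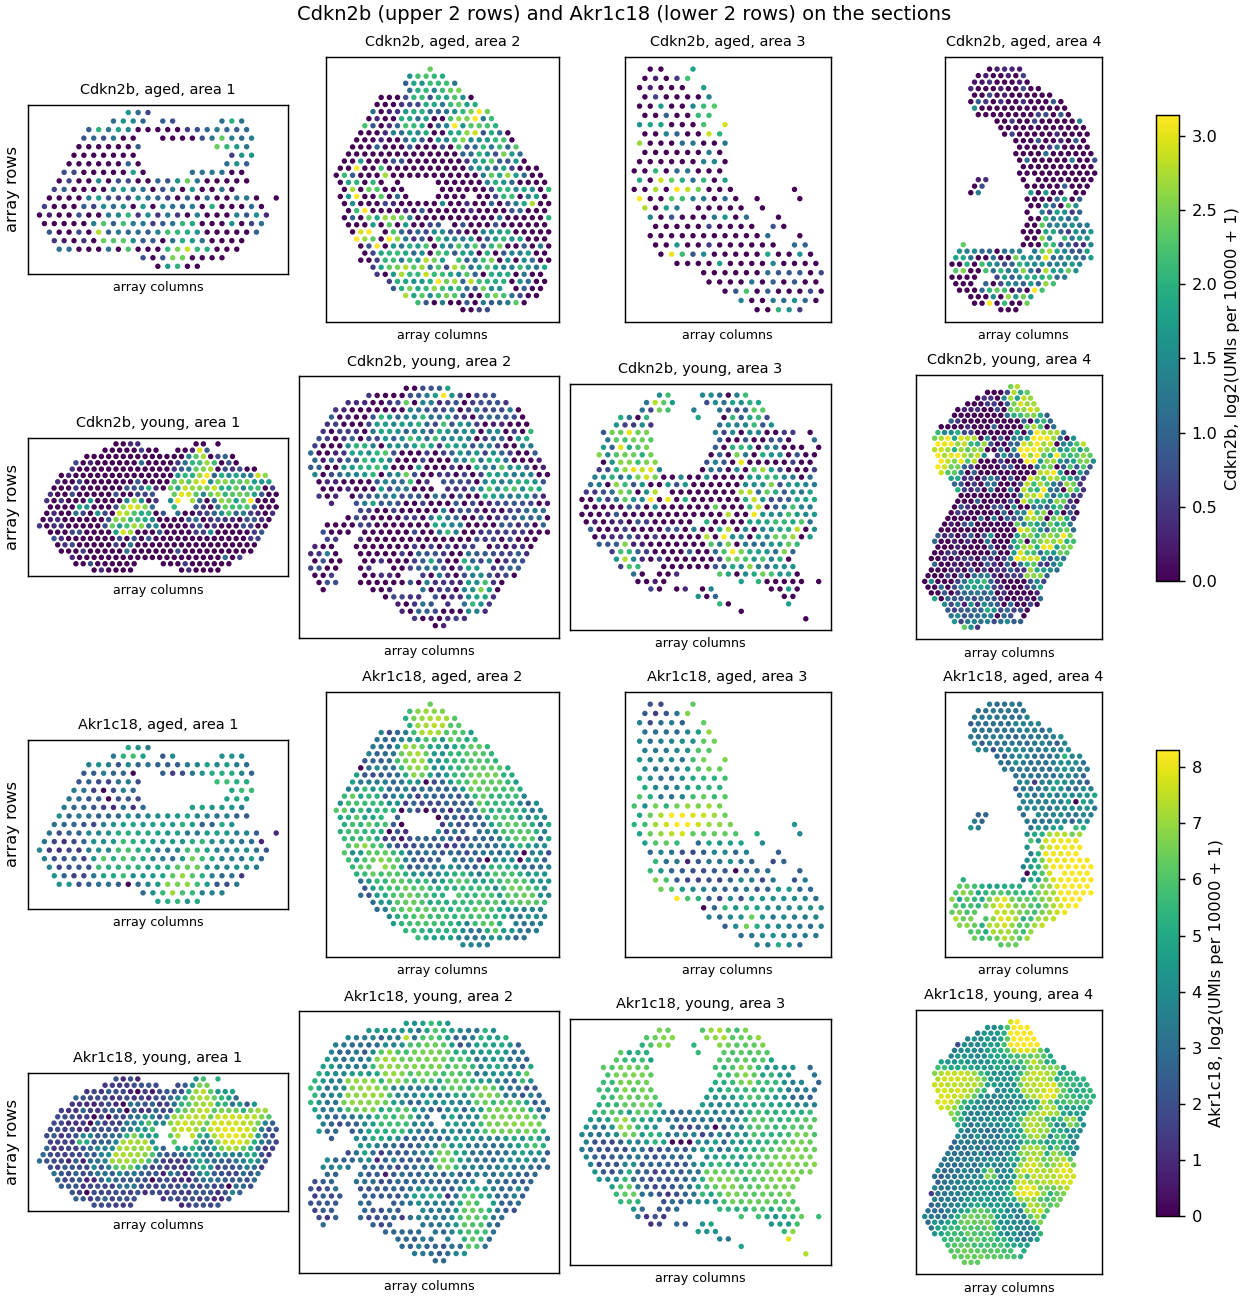
Spots of the 4 aged and 4 young sections coloured by Cdkn2b (upper rows) and Akr1c18 (lower rows), as log2 of UMIs per 10000 UMIs plus 1, each section drawn to its own scale along array rows and columns. Cdkn2b forms patches that lie in Akr1c18-rich tissue, and in aged section 4 the 10% of spots richest in Akr1c18 hold 151 CPM of Cdkn2b, against 73.8 CPM in the rest.

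The patches of Cdkn2b also show in the likeness of neighbouring spots: the correlation of a spot with the mean of its neighbours was 0.43 to 0.85 over sections (median 0.65). For Cdkn1a the median was 0.31, with a range of 0.02 to 0.68, for Trp53 it was 0.19, and for the other 6 members it was 0.12 or less. Sparse counts lower this value, so it does not rank the genes by how patterned their tissue is.

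Cdkn1a shared with Cdkn2b the low level in follicle and stroma spots. In stroma-marker spots it had 27.5, 7.88, 22.6 and 22.4 CPM in the aged sections, against 28.9, 12.5, 47.5 and 83.9 CPM in the rest. In the young sections it had 2.96, 12.02, 13.98 and 18.5 CPM in stroma-marker spots, against 21.5, 16.9, 12.9 and 56.8 CPM in the rest. It was lower in 7 of 8 sections, with a log2 difference of −1.19 ± 0.21 (adjusted p = 0.00051).

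Cdkn1a fell likewise in oocyte-marker spots (−1.26 ± 0.19), cycling-marker spots (−1.10 ± 0.29), granulosa-marker spots (−0.96 ± 0.30), smooth muscle-marker spots (−0.92 ± 0.17) and theca-marker spots (−0.91 ± 0.24), with adjusted p of 0.000115 to 0.043. Several of these classes share spots, so the falls of Cdkn1a too rest partly on the same spots. The theca call was lost in 6 of 13 alternatives (adjusted p up to 0.225, without young section 4), and the granulosa call without aged section 4, young section 2 or young section 4 (adjusted p 0.062 to 0.070). In macrophage-marker spots Cdkn1a differed by −0.07 ± 0.16 and in luteal-marker spots by 0.23 ± 0.30. The genes most like it over the 96 sums were Anxa1, an annexin with anti-inflammatory action, Tnfrsf12a, the receptor of the cytokine TWEAK, and Anxa2 (r of 0.73 to 0.76).

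Cdkn1c rose in surface epithelium-marker spots. It had 35.9, 20.5, 27.1 and 26.5 CPM there in the aged sections, against 14.5, 8.0, 14.9 and 10.7 CPM in the rest. Young sections had 10.6, 11.4, 20.1 and 13.7 CPM in surface epithelium-marker spots, against 6.8, 8.8, 10.2 and 10.3 CPM in the rest. It was higher in 8 of 8 sections, by 0.81 ± 0.17 on the log2 scale (adjusted p = 0.0031). No age test was fitted in these spots.

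In stroma-marker spots Cdkn1c rose by 0.57 ± 0.17 (adjusted p = 0.020), a call lost without area 3 (0.115) and without young section 1 (0.059) or young section 3 (0.075). It fell in granulosa-marker spots (−1.07 ± 0.33, adjusted p = 0.020) and cycling-marker spots (−0.79 ± 0.27, adjusted p = 0.031). The granulosa call was lost without young section 2 (0.066) and the cycling call in 6 of 13 alternatives (up to 0.138). Inf2, a formin, and Clstn1, a calsyntenin, were among the genes most like Cdkn1c (r of 0.748 and 0.745).

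Trp53 fell in luteal-marker spots. It averaged 38.0 ± 12.98 CPM there, against 59.3 ± 16.3 CPM in the rest (SD, n = 8), and was lower in 8 of 8 sections, with a log2 difference of −0.52 ± 0.09 (adjusted p = 0.0014). In cycling-marker spots it had 72.0 ± 23.3 CPM, against 53.8 ± 14.7 CPM in the rest, a rise of 0.37 ± 0.11 (adjusted p = 0.012) in 7 of 8 sections that was lost without area 3 (0.064) and with the highest 20% of spots (0.067). A rise of 0.27 ± 0.09 in stroma-marker spots (adjusted p = 0.033) was lost in 9 of 13 alternatives, among them leaving out any section but aged section 3, at adjusted p up to 0.101. Trp53 ran most like Adamts2, a procollagen protease, Eef1g, a translation elongation factor, and Impdh2, an enzyme of guanine nucleotide synthesis (r of 0.70 to 0.74).

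Gdf15 was called in macrophage-marker spots, where it averaged 7.54 ± 5.49 CPM, against 2.99 ± 0.82 CPM in the rest. Its counts in these spots were 3, 9, 0 and 9 in the aged and 1, 14, 11 and 5 in the young sections, and the 0 of aged section 3 allows up to 10.4 CPM. It was higher in 6 of 8 sections, by 1.25 ± 0.35 on the log2 scale (adjusted p = 0.029), a call lost without area 3 (0.096) and without aged section 1, aged section 2, aged section 4, young section 2 or young section 3 (0.051 to 0.111). In spots marked by lipid-laden macrophage genes it was higher in 7 of 8 sections, by 1.10 ± 0.33, which did not pass (adjusted p = 0.055). Of the 420 macrophage-marker spots, 161 were also lipid-laden macrophage-marker spots, so both results rest partly on the same spots.

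Cdkn1b and Glb1 were called in none of the 12 classes by edgeR's test, and Cdkn2a was too sparse to be tested in any. The differences of Glb1 ranged between −0.09 and 0.19 on the log2 scale, each with an SE of 0.09 to 0.11. In macrophage-marker spots, rich in lysosomes, Glb1 differed by 0.15 ± 0.09 (adjusted p = 0.385), while 6 of its 12 lysosomal partners were called higher there (median 0.27, against −0.01 over all genes, of which 4.47% were called higher). Cdkn1b was nearest to a call in stroma-marker spots (0.30 ± 0.12, adjusted p = 0.092) and luteal-marker spots (0.52 ± 0.22, adjusted p = 0.096). The genes most like Cdkn1b were Nol4l, Cbx6, a Polycomb protein, and Parvb, a focal adhesion protein (r of 0.66 to 0.74). Those most like Glb1 were Afg3l2, a mitochondrial protease, and the chromatin proteins Atrx and Arid4b (r of 0.44 to 0.50). Lmnb1 ran most like Slc26a7, an anion transporter, Inhbb, an inhibin subunit of granulosa cells, and Mki67, the proliferation marker (r of 0.82 to 0.83). Inhbb and Mki67 belong to the granulosa and cycling lists that chose the spots, so this likeness is a description. Across the spots of a section Spearman's rho of Lmnb1 with Mki67 was 0.10 to 0.26.

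**Figure D5:**
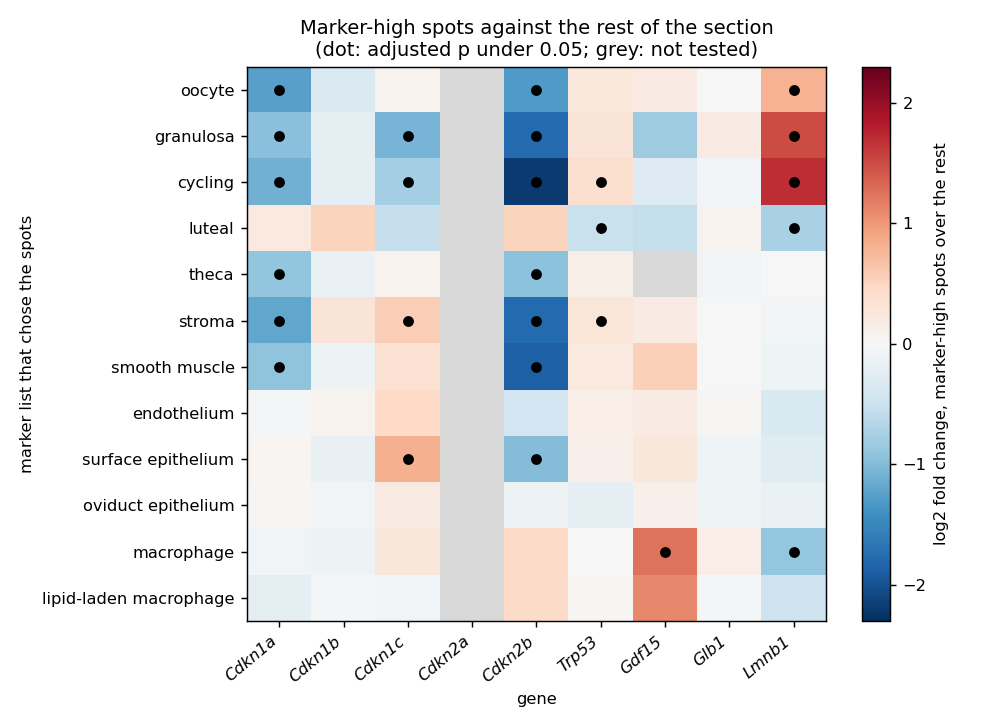
Log2 fold change of each gene (columns) in the 10% of spots highest in a marker list (rows) over the rest of the section, by colour, with dots for adjusted p under 0.05 and grey where a gene was not tested. Lmnb1 is high and Cdkn2b and Cdkn1a low in oocyte-, granulosa- and cycling-marker spots, and the Cdkn1b and Glb1 columns hold no dot.

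The pathway lists were read against all genes in the same fits. In cycling-marker spots 7 of 14 G1 genes were called higher and 1 lower (median 0.48, against −0.04 over all genes, of which 18.2% were called higher and 21.6% lower), and 6 of 11 lamina and chromatin genes were called higher and 2 lower (median 0.45). Of 18 secreted factors, 1 was called higher and 12 lower there (median −0.87). Of 21 p53 targets, 3 were called higher and 7 lower (median −0.18), against those same shares of all genes. Granulosa-marker spots, 212 of which were also cycling-marker spots, had a like pattern, with 38.2% of all genes called. There 9 of 14 G1 genes were called higher and 1 lower, and 7 of 11 lamina and chromatin genes higher and 2 lower. Of 18 secreted factors, 1 was called higher and 14 lower (median −0.90). In macrophage-marker spots 0 of 21 p53 targets were called, while 4 of 18 secreted factors were called higher and 1 lower (median 0.21), with 4.47% of all genes called higher and 4.09% lower. Endothelium-marker spots were alike in the secreted factors, with 4 of 19 called higher and 0 lower (median 0.21), where 11.4% of all genes were called.

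Age was tested again within granulosa-, luteal-, theca- and stroma-marker spots. The edgeR test called 0 genes in each, or 0% of 9567 to 10224 tested, with 417, 223, 385 and 267 genes at an unadjusted p under 0.05. Without area 3 it called 29 genes in stroma-marker spots, none of them a member. Cdkn1b in luteal-marker spots had 94.1, 9.0, 152 and 67.0 CPM in the aged sections, against 14.9, 14.4, 52.3 and 17.5 CPM in the young sections. The aged sections of areas 1, 3 and 4 were higher than all young ones, while that of area 2 was the lowest of all. The log2 difference was 1.55 ± 0.63 (unadjusted p = 0.031, adjusted p = 1.00). The luteal marker Hsd17b7 ran alike in whole sections. It had 457, 51.1, 541 and 2202 CPM in the aged sections, against 176, 226, 381 and 119 CPM in the young sections. Luteal-marker spots may thus hold unlike luteal tissue at the 2 ages, and the part of this in the Cdkn1b difference was not tested. The other tests of members in these classes gave −0.61 to 0.67. Cdkn2a and Gdf15 were too sparse for this test in all 4 classes, and Cdkn1c in granulosa- and luteal-marker spots.

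Whether the age difference in marker-high spots differed from that in the rest was tested with an interaction term, which called 0 genes, or 0%, in each of the 4 classes, with 795, 342, 622 and 612 genes at an unadjusted p under 0.05. Gdf15 in luteal-marker spots had 0, 1, 0 and 2 counts in the aged sections, against 5, 16, 3 and 6 counts in the young sections. The counts of 0 allow up to 3.36 CPM in aged section 1 and 8.00 CPM in aged section 3, against 1.69 to 5.13 CPM measured in the young sections. Its interaction term was −2.61 ± 0.79 on the log2 scale (unadjusted p = 0.0059, adjusted p = 1.00). Cdkn1b had interaction terms of −0.90 ± 0.41 for granulosa-marker spots and −0.75 ± 0.28 for theca-marker spots (unadjusted p = 0.042 and 0.017, adjusted p = 0.80 and 0.83), which did not pass.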

How the data were processed

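The authors deposited UMI counts for each gene in each spot, whole numbers whose totals differ between areas, so they are not normalized. The tool Space Ranger 1.2.1 and the build mm10 are named in the submitters' processing notes. Annotation and strand setting: not given in the sources used here. Positions in other units, array rows and columns and image pixels, are as deposited, per the files' layout, and image scale factors were not used. Sections were cut at 10 µm, placed on 6.5 mm capture areas and permeabilised for 18 minutes, per the labels' protocols.

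Spots were assigned to ages by the side the labels name (top or right aged, bottom or left young), splitting at the widest gap. A split by k-means moved 9 of 4191 spots, and 72 spots over tissue without counts were left out. CPM are summed counts over total counts. Tests were edgeR 4.0.16 (limma 3.58.1, R 4.3.3) quasi-likelihood fits on sums, with TMM, filterByExpr, a Benjamini-Hochberg threshold of 0.05 and age alone, or section as a block for marker-high spots. DESeq2 1.42.0 was an alternative. Animals are the replicates (4 per age). Scores averaged z-scored log counts per 10000 UMIs, in spots of at least 500 UMIs. Python 3.11.15, numpy 2.4.6, scipy 1.17.1 and pandas 2.3.3 made sums and permutation tests. The fits were checked on simulated data.

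The capture area pairs the sections by the labels, and the correlations of paired deviations were 0.00358, 0.165, −0.224 and 0.208 in areas 1 to 4. All 9 members are named in the whole-section comparison, and elsewhere those tested are named or counted. Of each pathway list the 2 genes of smallest p are named, and for each member of at least 5 CPM the 3 genes of highest Pearson r of log2(CPM + 1), centred within section. Some genes that these rules name are not reported here. The members and lists were chosen with earlier results of these data known.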

Additional observations from a re-analysis of the deposited data

Results flagged for a closer look

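In 108 groups of 4 sections, 11 had a section far from the other 3 by Dixon's criterion, and chance alone gives about 1 in 20 groups. Lmnb1 was far above the other aged sections in aged section 3, at 47.2 CPM in the whole section, 29.3 CPM in luteal-marker spots and 42.2 CPM in theca-marker spots. Glb1 was far above the other young sections in young section 3, at 72.8 CPM in the whole section, 33.8% of spots at 5000 UMIs, 100.3 CPM in granulosa-marker spots and 76.4 CPM in stroma-marker spots. Glb1 was also far below the other aged sections in granulosa-marker spots of aged section 1, at 32.2 CPM. Cdkn1b stood apart at 52.3 CPM in luteal-marker spots of young section 3. Cdkn2a met the criterion at 1.13 CPM in stroma-marker spots of aged section 2. The other 3 aged sections had 0 counts there, which allow up to 6.87, 7.52 and 7.45 CPM, so the value is not resolved from theirs. Gdf15 met it at 0.63 CPM in theca-marker spots of young section 4, a value that rests on 1 count. Area 3, in which 8 of these values lie, is the area that oocyte markers set apart.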

How the results depend on the processing

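No member passed the age test in whole sections under any setting. The capture area as a replicate block left 0 genes called, with Cdkn1b at 0.89, and changed no member's call. DESeq2 called 6 genes between ages. Without area 3 the signs turned for Trp53 (−0.12) and Lmnb1 (−0.56). Leaving out 1 section at a time gave −0.060 to 0.23 for Trp53, −0.13 to 0.37 for Gdf15, −0.070 to 0.28 for Glb1 and −0.44 to 0.60 for Lmnb1. Between marker-high spots and the rest, members called higher numbered 5 without area 3, against 8 with it, and 5 to 9 (without young section 3 and aged section 3) when 1 section was left out, a setting added after seeing the data. With the highest 20% of spots, granulosa-marker differences turned to 0.089 for Gdf15 and −0.015 for Glb1. Within marker-high spots, age called 31 genes in granulosa, 16 in theca and 22 in stroma with no filter on low counts, 29 in stroma without area 3, and 0 to 2 in theca without 1 section (2 without aged section 2). Shares of spots, in points aged minus young, turned without thinning for Cdkn1a (−1.81), Cdkn1b (−1.01), Cdkn1c (−1.90), Cdkn2a (−0.125), Trp53 (−12.2), Gdf15 (−2.16) and Lmnb1 (−5.59), and with thinning to 2000 UMIs for Glb1 (0.439). Leaving out 1 section gave −0.0045 to 6.54 for Cdkn1b, −5.06 to 2.32 for Cdkn2b, −2.38 to 3.50 for Trp53, −2.37 to 2.61 for Glb1 and −1.89 to 2.25 for Lmnb1. The cause was not tested. Depth limits Cdkn2a and Gdf15, with 98 and 297 counts in all.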
